A study of Mus musculus with 8 samples.

Results

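The 10 cathepsin genes described here, Ctsa, Ctsb, Ctsc, Ctsd, Ctsf, Ctsh, Ctsk, Ctsl, Ctss and Ctsz, were chosen by gene symbol from the 55679 genes of an RNA-seq table, and all 10 were among the 19364 genes that averaged 0.1 FPKM or more and were tested. FPKM is the number of fragments of a gene scaled by the length of its transcript and by the depth of the library. The libraries came from left ventricles of male wild-type C57BL/6J mice. In the control group, saline was infused for 7 days. In the ANG II group, angiotensin II, a peptide that raises blood pressure, was infused for 7 days at 1500 ng/kg/min. Both were infused from osmotic mini-pumps under the skin. Each group held 4 libraries, and the ages of the mice were not given in the sources used here. The labels number the libraries without tying them to animals, so the p-values measure the spread between these libraries.

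Cathepsins are proteases of lysosomes, the acidic compartments in which cells break down proteins taken up from outside or delivered by autophagy. Most are cysteine proteases of the papain family, whereas cathepsin D is an aspartic protease and cathepsin A a serine carboxypeptidase. They are made as inactive precursors that are cleaved at low pH. Some are also secreted by macrophages and other cells, where they can cut elastin and collagen of the extracellular matrix, and cystatins and related proteins inhibit the cysteine cathepsins. Messenger RNA was measured here, so neither protein nor protease activity is described.

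Read from the FPKM steps, the libraries held 14455933 to 16565247 fragments, and log2(FPKM + 1) of 2 libraries of the same group correlated across genes at 0.988 or more, against at most 0.977 between groups. Cardiomyocyte markers summed to 55305 to 56605 FPKM in control and 42972 to 45231 FPKM in ANG II libraries, although the extraction text in the labels names CRC cells. Mitochondrially encoded genes took 28.9 to 30.2% of the summed FPKM in control and 22.1 to 24.6% in ANG II. Of all genes tested, 2708 were called higher in ANG II and 273 lower (limma on log2(FPKM + 1), adjusted p under 0.05 and absolute log2 fold change above 0.5), and the median log2 fold change was 0.15. That split depended on the scaling of the libraries. It was 1670 higher and 804 lower with median-of-ratios size factors, 1413 and 986 after quantile normalization, and 1976 and 549 when mitochondrial genes and the 10 most abundant genes were left out of the scaling.

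Of the 10 cathepsin genes, 9 were called higher in ANG II and 0 lower, beside 14.0% of all genes tested called higher and 1.41% called lower. At an unadjusted p under 0.05, 1 cathepsin gene was lower with limma, and 0 were lower with voom on recovered fragments. For these 9 genes every ANG II library lay above every control library, a separation shown by 28.7% of all genes tested. Ctsf was the exception, with every ANG II library below every control library, as for 5.06% of all genes. The median log2 fold change of the 10 genes was 0.80. Taken against that of all genes tested, the fold changes ranged from -0.26 for Ctsf to 2.14 for Ctsk. In tissue RNA, more cells of a type and more RNA per cell cannot be told apart.

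**Figure D1:**
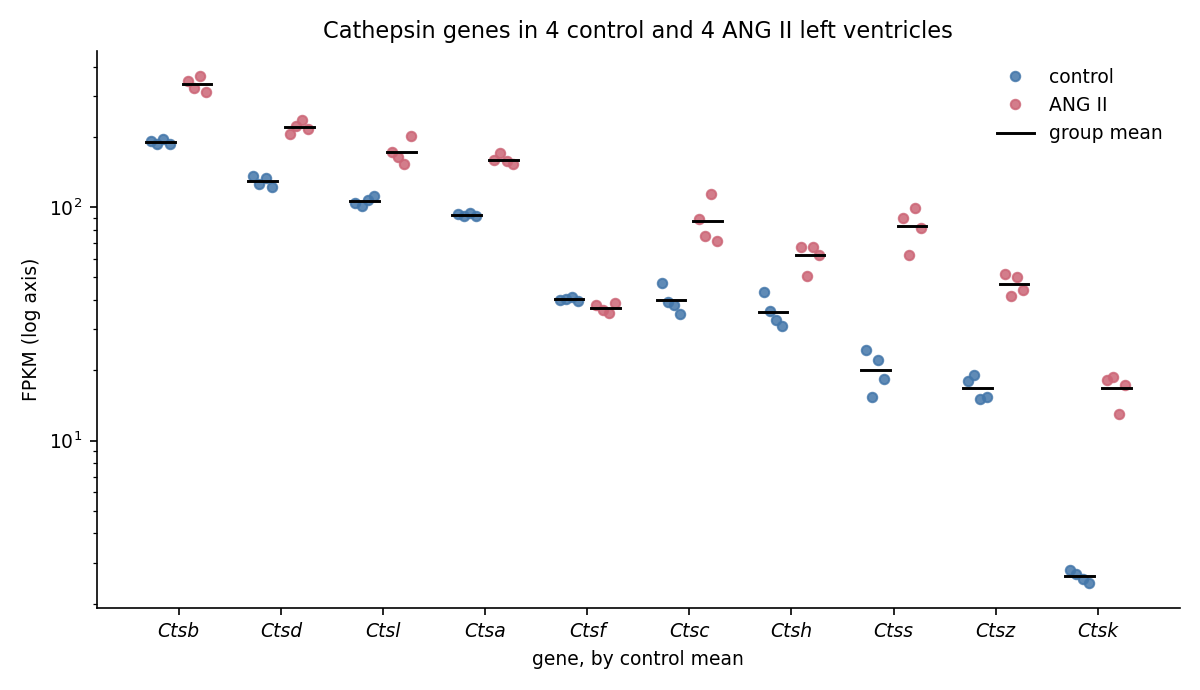
FPKM on a log axis of the 10 cathepsin genes in 4 control (blue) and 4 ANG II (red) libraries, with points for single libraries from replicate 1 on the left to 4 on the right and black bars for group means. All ANG II points lie above the control points for 9 genes, with the widest gaps for Ctsk and Ctss, and the Ctsf points of ANG II lie just below those of control.

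The widest changes were in Ctsk and Ctss, which are neighbours on chromosome 3. Ctsk (ENSMUSG00000028111, GRCm38 chr3:95499256-95509362, plus strand) encodes cathepsin K, the collagen-degrading protease of osteoclasts, and Ctss (ENSMUSG00000038642, chr3:95526786-95556403, plus strand) encodes cathepsin S, which trims the invariant chain during antigen presentation and can cut elastin. The end of Ctsk and the start of Ctss are 17423 bases apart. The 250 bases before the RefSeq start of each (GRCm38.p6, 5′ to 3′, overlapping no annotated exon) are shown because these genes rose most. G and C made up 43.2% of the Ctsk stretch and 44.8% of the Ctss stretch.
Ctsk (chr3:95498960-95499209, plus strand): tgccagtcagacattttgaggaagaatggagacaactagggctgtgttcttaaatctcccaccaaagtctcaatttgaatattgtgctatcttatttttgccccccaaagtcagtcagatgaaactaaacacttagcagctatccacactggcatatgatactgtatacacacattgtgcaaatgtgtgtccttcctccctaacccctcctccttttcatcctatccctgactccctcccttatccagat
Ctss (chr3:95526536-95526785, plus strand): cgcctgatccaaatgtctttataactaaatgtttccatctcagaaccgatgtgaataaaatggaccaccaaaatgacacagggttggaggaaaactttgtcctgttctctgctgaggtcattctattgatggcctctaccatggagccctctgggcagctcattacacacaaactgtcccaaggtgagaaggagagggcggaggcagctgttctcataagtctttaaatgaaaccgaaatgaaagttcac

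Ctsk stood at 2.79, 2.67, 2.56 and 2.46 FPKM in control replicates 1 to 4 and at 18.2, 18.7, 13.0 and 17.3 FPKM in ANG II replicates 1 to 4. It was the least abundant of the 10 genes in FPKM, and the highest control library lay far below the lowest ANG II library, replicate 3. The mean rose from 2.62 ± 0.142 to 16.8 ± 2.61 FPKM (SD, 4 libraries per group), a 6.41-fold ratio, with a log2 fold change of 2.29 (SE 0.113, adjusted p = 3.10e-06). These values rested on 57 to 64 fragments per control library and 297 to 451 per ANG II library. Ctsk ranked 60 among the 2708 genes called higher, ordered by log2 fold change.

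Ctss read 24.5, 15.4, 22.2 and 18.3 FPKM in control and 89.7, 62.4, 98.7 and 81.7 FPKM in ANG II. Relative to its mean, it was the most spread of the 10 genes in control (SD 20.1% of the mean), where replicate 1 was highest and replicate 2 lowest, yet the groups did not overlap. The mean rose from 20.1 ± 4.03 to 83.1 ± 15.5 FPKM (SD, 4 libraries per group), 4.13-fold, with a log2 fold change of 2.00 (SE 0.162, adjusted p = 2.77e-05) and rank 98 among higher calls. The expressed protein-coding genes on either side did not share this size of change. Arnt, before Ctsk, had a log2 fold change of 0.21, and Golph3l and Ensa, beyond Ctss, of 0.26 and 0.20, all under the threshold of 0.5. Hormad1, which lies between Ctss and Golph3l, was listed at 0 in all 8 libraries; these 4 neighbours were chosen after their values were seen.

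Ctsz and Ctsc, which encode exopeptidases, were the other cathepsin genes with a log2 fold change above 1. Cathepsin Z (Ctsz, ENSMUSG00000016256, chr2:174427493-174439039, minus strand) removes single residues from the carboxyl end of proteins. Cathepsin C (Ctsc, ENSMUSG00000030560, chr7:88278085-88310888, plus strand) removes dipeptides from the amino end and activates the granule serine proteases of immune cells. The 250 bases before their RefSeq starts are shown for comparison with Ctsk and Ctss, with G and C at 58.8% for Ctsz and 60.4% for Ctsc.
Ctsz (chr2:174439040-174439289, minus strand): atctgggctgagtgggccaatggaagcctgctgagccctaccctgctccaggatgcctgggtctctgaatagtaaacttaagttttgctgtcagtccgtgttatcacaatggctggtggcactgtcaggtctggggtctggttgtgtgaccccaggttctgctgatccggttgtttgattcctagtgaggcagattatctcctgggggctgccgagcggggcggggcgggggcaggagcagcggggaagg
Ctsc (chr7:88277835-88278084, plus strand): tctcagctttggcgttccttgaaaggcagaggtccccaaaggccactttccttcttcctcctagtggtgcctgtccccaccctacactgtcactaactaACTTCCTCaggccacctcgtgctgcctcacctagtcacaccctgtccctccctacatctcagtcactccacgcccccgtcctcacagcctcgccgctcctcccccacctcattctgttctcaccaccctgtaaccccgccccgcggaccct

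The capitals in the Ctsc stretch mark, on the opposite strand, the letters GAGGAAGT, searched on both strands as a form of the site bound by PU.1, a transcription factor of myeloid cells. The match begins 151 bases before the start, and the same letters occurred in 2.44% of 32851 RefSeq windows of this length. Windows were found for 8 of the 10 genes, all but Ctsb and Ctsh, and of these Ctsc alone held the letters.

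Ctsz measured 17.95, 19.0, 15.0 and 15.3 FPKM in control against 51.5, 41.7, 50.2 and 44.0 FPKM in ANG II. The 2 groups stood well apart, with an SD of 11.8% of the mean in control and 10.2% in ANG II. The mean went from 16.8 ± 1.98 to 46.9 ± 4.77 FPKM (SD, 4 libraries per group), 2.79-fold, with a log2 fold change of 1.43 (SE 0.0953, adjusted p = 9.70e-06). For Ctsc, control libraries gave 47.2, 39.2, 37.9 and 34.9 FPKM and ANG II libraries 88.6, 75.5, 113 and 71.2 FPKM. ANG II replicate 3 was its highest and ANG II replicate 4 its lowest treated library. The Ctsc mean rose 2.19-fold, from 39.8 ± 5.26 to 87.1 ± 18.9 FPKM (SD, 4 libraries per group), with a log2 fold change of 1.10 (SE 0.141, adjusted p = 3.41e-04).

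Further lysosomal cysteine proteases were also called higher. Cathepsin B (Ctsb, ENSMUSG00000021939, chr14:63122462-63145923, plus strand) cuts within proteins and also removes dipeptides from the carboxyl end. Its FPKM was 192, 187, 196 and 187 in control and 345, 325, 364 and 311 in ANG II. Ctsb had the highest FPKM of the 10 genes in every library, and the control libraries differed little. The mean rose from 190 ± 4.34 to 336 ± 23.1 FPKM (SD, 4 libraries per group), 1.77-fold, with a log2 fold change of 0.82 (SE 0.0553, adjusted p = 1.03e-05). Fdft1 lies opposite 12.8% of the Ctsb exons, and the use of strand in counting was not given in the sources used here.

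Cathepsin L (Ctsl, ENSMUSG00000021477, chr13:64359337-64370890, minus strand) is an endopeptidase. Control libraries held 104, 101, 107 and 112 FPKM and ANG II libraries 173, 163, 153 and 202 FPKM. Its highest library in both groups was replicate 4. The mean rose from 106 ± 4.64 to 173 ± 21.1 FPKM (SD, 4 libraries per group), 1.63-fold, with a log2 fold change of 0.69 (SE 0.0801, adjusted p = 1.89e-04). With median-of-ratios scaling the log2 fold change was 0.47 (adjusted p = 0.00195, limma), under the threshold, so the call was lost. Of its 50-base words, 6.46% also occur in the pseudogene Gm49230, and 26.9% of its exons lie opposite Gm47123, both listed at 0 in all libraries.

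Cathepsin H (Ctsh, ENSMUSG00000032359, chr9:90054152-90076089, plus strand) is mainly an aminopeptidase. It read 43.2, 36.0, 32.7 and 30.8 FPKM in control and 67.6, 50.9, 67.6 and 62.5 FPKM in ANG II. The gap between the groups was the narrowest in FPKM of the 9 higher genes, with control replicate 1 and ANG II replicate 2 nearest to each other. The mean rose from 35.7 ± 5.44 to 62.1 ± 7.88 FPKM (SD, 4 libraries per group), 1.74-fold, with a log2 fold change of 0.79 (SE 0.117, adjusted p = 7.70e-04).

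The aspartic and the serine protease gene rose by ratios near those of Ctsb and Ctsh. Cathepsin D (Ctsd, ENSMUSG00000007891, chr7:142375911-142388038, minus strand), a main endopeptidase of the lysosome, stood at 135, 125, 134 and 122 FPKM in control and 206, 222, 236 and 217 FPKM in ANG II. Its mean went from 129 ± 6.64 to 220 ± 12.4 FPKM (SD, 4 libraries per group), 1.71-fold, with a log2 fold change of 0.77 (SE 0.0565, adjusted p = 1.62e-05). Gm49369 shares 32.4% of the 50-base words of Ctsd and was listed at 0 in all libraries, so fragments of this locus cannot be divided between them. Cathepsin A (Ctsa, ENSMUSG00000017760, chr2:164832873-164841032, plus strand) is a carboxypeptidase that also protects beta-galactosidase and neuraminidase in the lysosome. It gave 93.4, 91.3, 94.7 and 91.1 FPKM in control and 159, 171, 157 and 152 FPKM in ANG II, with an SD of 1.83% of the mean in control and 4.86% in ANG II. The Ctsa mean rose from 92.6 ± 1.69 to 160 ± 7.76 FPKM (SD, 4 libraries per group), 1.72-fold, with a log2 fold change of 0.78 (SE 0.0467, adjusted p = 5.49e-06). Neurl2 and Pltp lie opposite 17.4% of its exons.

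Ctsf (ENSMUSG00000083282, chr19:4855130-4860918, plus strand) did not follow the others. Cathepsin F is a cysteine protease with a long propeptide that resembles a cystatin. Its FPKM was 39.8, 40.2, 41.1 and 39.7 in control and 38.0, 36.3, 35.1 and 38.7 in ANG II. The ANG II libraries lay just below the controls without overlap. The means were 40.2 ± 0.626 and 37.0 ± 1.63 FPKM (SD, 4 libraries per group), a ratio of 0.921, with a log2 fold change of -0.12 (SE 0.0484, adjusted p = 0.0924), so Ctsf was not called. Over the alternatives its log2 fold change ran from -0.34 to -0.09 and its adjusted p from 7.13e-04 to 0.192, never past the fold threshold. An exact two-sided permutation test of FPKM gave p = 0.0286 for Ctsf and for each of the other 9 genes (n = 4 each), the smallest that the 70 allocations allow.

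**Figure D2:**
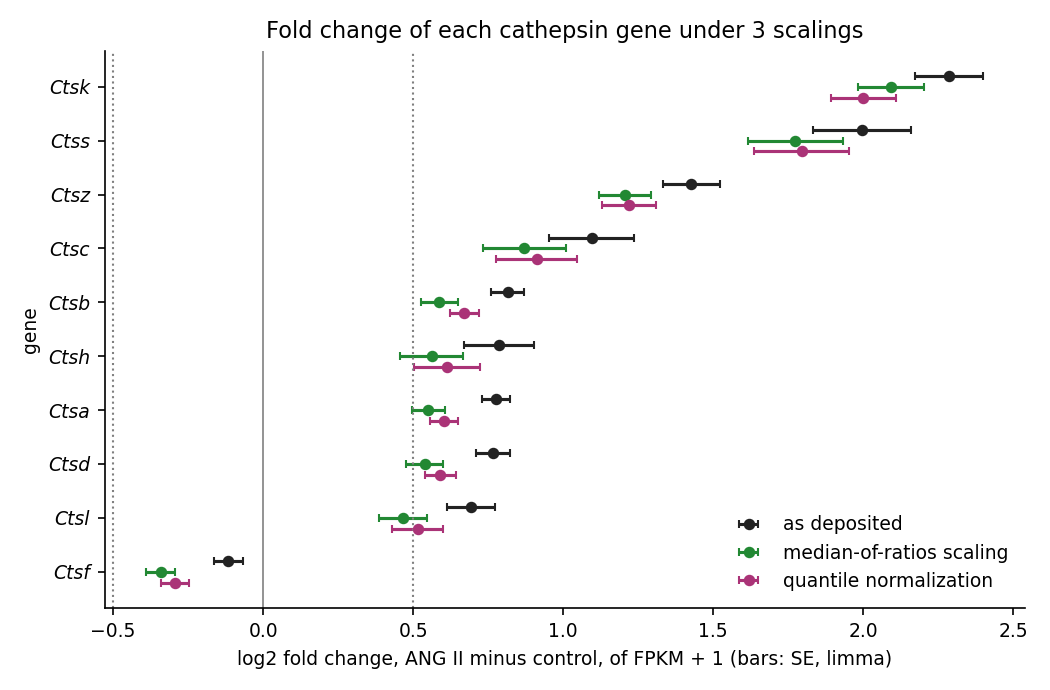
Log2 fold change of FPKM + 1, ANG II minus control, of each cathepsin gene (points, with SE bars from limma) as deposited, after median-of-ratios scaling and after quantile normalization, with dotted lines at the threshold of 0.5 in both directions. The order from Ctsk to Ctsf was kept under each scaling, and Ctsl lay under the threshold with median-of-ratios scaling at 0.47.

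Whether 2 cathepsin genes changed unequally was read from the log2 ratio of their FPKM + 1 within each library, which the scaling of libraries moves only through the pseudocount. Of the 45 pairs, 28 differed between groups, each with an exact two-sided permutation p of 0.0286 (n = 4 each, adjusted over the 45 pairs 0.0459). All 9 pairs with Ctsf were among them. The Ctsa to Ctsf ratio, for example, moved by 0.89 and the Ctsl to Ctsf ratio by 0.81 on the log2 scale. Ctsk and Ctss each rose more than every other cathepsin gene, with the smallest such difference, 0.57, between Ctss and Ctsz. Ctsk exceeded Ctsz by 0.86. The ratio of Ctsk to Ctss itself moved by 0.29, which was within the spread of the libraries (SD 0.270 in control and 0.470 in ANG II; exact permutation p = 0.371, n = 4 each, adjusted 0.478). With a pseudocount of 0.1, which bears less on the low Ctsk, it moved by 0.58 (exact permutation p = 0.0857, n = 4 each, adjusted 0.117), again without passing.

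Ctsz rose more than Ctsa, Ctsb, Ctsd, Ctsh, Ctsl and Ctsf, by 0.61 against Ctsb and 0.65 against Ctsa. It was not separated from Ctsc (0.33, exact permutation p = 0.0857, n = 4 each, adjusted 0.121). No difference was found between any 2 of Ctsa, Ctsb, Ctsd, Ctsh and Ctsl, whose ratios moved by 0.12 or less. Ctsc stood between, 0.28 above Ctsb (exact permutation p = 0.0857, n = 4 each, adjusted 0.121) and 0.40 above Ctsl (p = 0.143 by the same exact test, adjusted 0.189). With 4 libraries per group, a missed threshold does not show that genes changed alike.

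**Figure D3:**
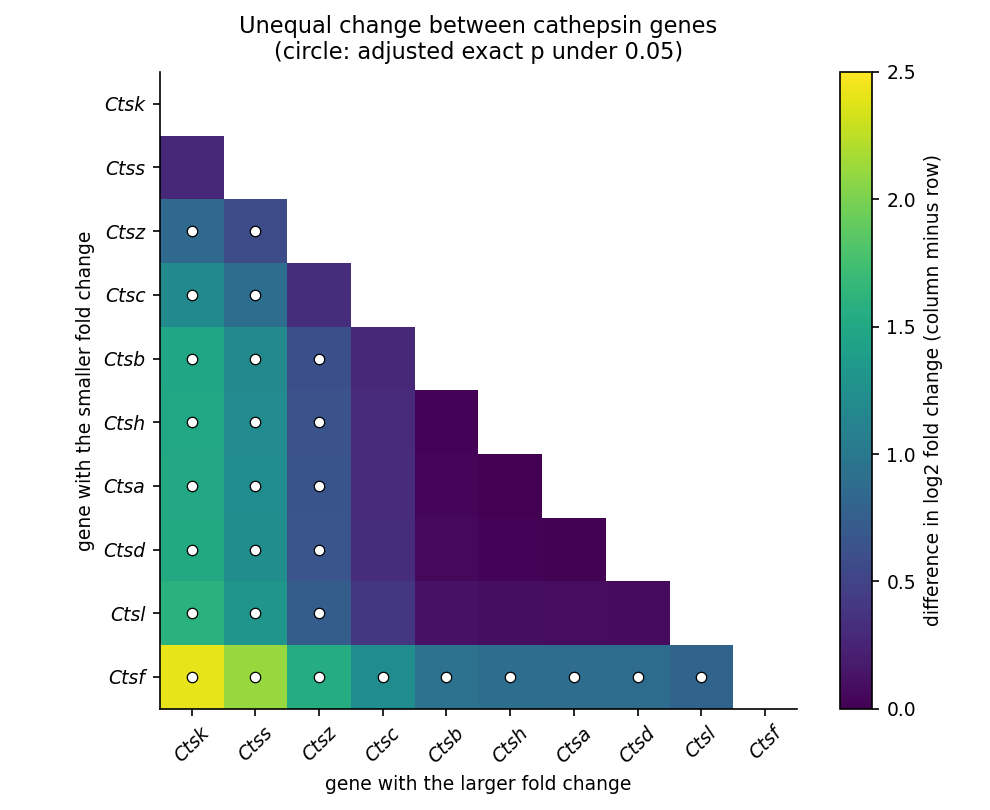
Difference in log2 fold change for the 45 pairs of cathepsin genes (colour, column gene minus row gene, from log2 ratios of FPKM + 1 within libraries), with a circle where the exact permutation p adjusted over the pairs was under 0.05. The circles fill the Ctsf row and most of the Ctsk, Ctss and Ctsz columns, and none lies among Ctsb, Ctsh, Ctsa, Ctsd and Ctsl.

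Summed over the 10 genes, FPKM was 701, 656, 683 and 654 in control and 1237, 1166, 1288 and 1198 in ANG II. The sum averaged 673 ± 22.5 over control and 1222 ± 52.8 over ANG II libraries (SD, 4 libraries per group), 1.82-fold. The share of Ctsb in this sum was 28.3 ± 0.580% for control and 27.5 ± 1.03% for ANG II libraries (SD). Ctss went from 2.98 ± 0.506% to 6.77 ± 1.01%, Ctsk from 0.389 ± 0.0160% to 1.38 ± 0.259%, and Ctsf from 5.98 ± 0.204% to 3.04 ± 0.219%.

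In control, FPKM fell in the order Ctsb, Ctsd, Ctsl, Ctsa, Ctsf, Ctsc, Ctsh, Ctss, Ctsz and Ctsk. The ranges of Ctsf and Ctsc overlapped, as did those of Ctsc and Ctsh and of Ctss and Ctsz, so these neighbours were not separated. In ANG II the order was Ctsb, Ctsd, Ctsl, Ctsa, Ctsc, Ctss, Ctsh, Ctsz, Ctsf and Ctsk, with Ctsl and Ctsa overlapping and Ctsc, Ctss, Ctsh and Ctsz overlapping from each to the next. Ctsf went from the fifth place to the ninth, and Ctss from the eighth to the sixth. These levels were per length, and the length matched the mean over all annotated transcripts of a gene, 926 bases for Ctsa and 2271 for Ctsb, for example. With the transcripts paired to RefSeq, 3090 bases for Ctsa and 4743 for Ctsb, the control order would be led by Ctsd (93.8), Ctsb (91.2) and Ctsl (86.5), and Ctsa would fall to 27.8 FPKM. On that scale Ctsf would stand in the eighth place in control and the ninth in ANG II, and Ctss would take the fourth place in ANG II at 83.1 FPKM. Fold changes do not depend on this choice beyond the pseudocount.

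The cathepsin genes did not share 1 order of libraries within the groups. In control, replicate 1 was highest for 5 of the 10 genes, Ctsc, Ctsd, Ctsh, Ctsk and Ctss, and replicate 4 lowest for 6. In ANG II, replicate 3 was highest for Ctsb, Ctsc, Ctsd and Ctss and lowest for Ctsf, Ctsk and Ctsl, whereas replicate 2 was lowest for Ctsh, Ctss and Ctsz. The summed macrophage markers were highest in control replicate 1 and ANG II replicate 3 and lowest in replicate 2 of both groups, as for Ctss. The summed fibroblast markers were highest in control replicate 2 and ANG II replicate 1 and lowest in control replicate 3 and ANG II replicate 4, which Ctsz shared except for its lowest ANG II library, replicate 2.

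Values of several lists of cell type markers moved with the treatment. Of 19 macrophage markers, 18 were called higher, their sum was 368 to 456 FPKM in control and 856 to 1173 FPKM in ANG II, and none was at 0. Cd68 rose by a log2 fold change of 1.71, Csf1r by 1.18 and Ccr2 by 2.01; the markers named here were chosen after their values were seen. Of 12 fibroblast markers, 11 were called higher, with sums of 1271 to 1728 and 3844 to 4280 FPKM, and Postn rose by 4.30, the widest change of the list. The other marker, Gsn, had a log2 fold change of -0.50 and was called lower with median-of-ratios scaling (-0.73) and quantile normalization (-0.54). Of 10 cardiomyocyte markers, 2 were called lower, beside 1.41% of all genes, Myh6 at -0.55 and Tnni3 at -0.58, and 0 higher (0 also at an unadjusted p under 0.05 and with voom). With median-of-ratios scaling, 5 were called lower, beside 4.15% of all genes, and after quantile normalization 1, beside 5.09%. After quantile normalization, limma also counted 2 higher and 2 lower at an unadjusted p under 0.05. Of 5 neutrophil markers tested, 3 were called higher, beside 14.0% of all genes. All 5 were higher at an unadjusted p under 0.05 with limma, and voom called all 5, beside 18.9% of all genes. The list summed to 2.60 to 5.80 FPKM in control and 8.02 to 21.01 FPKM in ANG II, with Elane at 0. All 5 erythroid markers were called higher, from 96.8 to 487 FPKM in control to 581 to 2083 FPKM in ANG II. Higher calls were also made among endothelial (2 of 8), T and NK cell (2 of 7), skeletal muscle (2 of 5) and atrial markers (2 of 4), beside the 14.0% of all genes. The 2 atrial calls were Nppa, from 8.61 to 141 FPKM, and Sln, from 1.81 to 7.54 FPKM. Myl7 (log2 fold change 2.38) and Myl4 (2.23) were not called, though their groups did not overlap, and voom called all 4. Control libraries of Myl7 ran from 0.205 to 21.1 FPKM. Atrial natriuretic peptide, the product of Nppa, is named in the study among genes activated in cardiomyocytes by signals such as angiotensin II. Of the skeletal muscle markers, Ckm had a log2 fold change of -0.39 (adjusted p = 0.00384, limma) with no overlap between the groups. Both median-of-ratios scaling and quantile normalization gave 1 lower call in the list (Ckm was chosen after its values were seen). The 2 higher calls were Acta1 (log2 fold change 1.25) and Tnnt3 (1.28). In control, Ckm averaged 662 and Acta1 463 FPKM, against 2.10 for Mylpf and 0.151 for Atp2a1, neither called, and Myh4 was at 0. Whether these transcripts came from skeletal or heart muscle was not tested. With median-of-ratios scaling and quantile normalization, 0 endothelial and 1 atrial marker were called higher. After quantile normalization, 0 T and NK cell markers were called higher. At an unadjusted p under 0.05, limma counted 2 endothelial and 3 T and NK cell markers higher under each scaling. By the same measure, 2 endothelial markers were lower with median-of-ratios scaling and 1 after quantile normalization. On the values as deposited, limma called 0 of the B cell (5 tested), mast cell (5) and adipocyte markers (4), with 1, 0 and 0 at an unadjusted p under 0.05 and 0 called with voom, and after quantile normalization it called 1 mast cell marker lower. The part of these cell types in the cathepsin changes was not tested.

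The genes for inhibitors of cysteine cathepsins were read next. Of 6 inhibitor genes tested, 3 were called higher, beside 14.0% of all genes, and 0 lower (0 also at an unadjusted p under 0.05 and with voom). Cstb, which encodes stefin B of the cytosol, went from 12.1 ± 2.31 to 25.4 ± 3.96 FPKM (SD, 4 libraries per group) with a log2 fold change of 1.02 (SE 0.138, adjusted p = 4.44e-04). Cst3, which encodes the secreted cystatin C, read 701, 697, 578 and 610 FPKM in control and 1014, 895, 1019 and 983 FPKM in ANG II. It was the most abundant inhibitor gene in FPKM, and its log2 fold change was 0.60 (SE 0.0771, adjusted p = 3.34e-04). Cst6, for cystatin M, rose by 0.60 (SE 0.173, adjusted p = 0.0240) from 1.37 to 2.62 FPKM. Cst7 (0.32), for cystatin F, and Ctla2a (0.29) and Ctla2b (-0.12), whose products resemble a cathepsin propeptide, did not pass with limma. With voom on recovered fragments, 4 of the 6 inhibitor genes were called higher, beside 18.9% of all genes. Stfa1, Stfa2 and Stfa3 were listed at 0. With median-of-ratios scaling, 1 inhibitor gene was called, beside 8.62% of all genes called higher.

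Among 14 further cathepsin and napsin genes, 4 were tested and 2 called higher, beside 14.0% of all genes, and 0 lower (0 also at an unadjusted p under 0.05 and with voom). Ctso, for the cysteine protease cathepsin O, rose from 14.1 ± 1.25 to 20.7 ± 0.570 FPKM (SD, 4 libraries per group), a log2 fold change of 0.52 (SE 0.0697, adjusted p = 4.09e-04). Napsa, for the aspartic protease napsin A, rose from 0.204 to 1.56 FPKM with a log2 fold change of 1.09 (SE 0.182, adjusted p = 0.00141). Ctsw (0.72, adjusted p = 0.101, limma) and Ctse (0.23, adjusted p = 0.0849, limma) did not pass. Ctsw was called without ANG II replicate 2 (1.05, adjusted p = 0.00308, limma), and Ctse with voom on the recovered fragments (1.94, adjusted p = 0.0428). Cts3, Cts7, Cts8, Ctsg, Ctsj, Ctsll3, Ctsm, Ctsq and Ctsr were listed at 0 in all libraries; most of them are known from the placenta, and Ctsg from neutrophil granules. Under median-of-ratios scaling or quantile normalization, 1 of the 4 was called, beside 8.62% and 7.30% of all genes called higher.

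Many other lysosomal hydrolase genes were called higher. Of 35 tested, 24 were called higher, beside 14.0% of all genes, and 0 lower (0 also at an unadjusted p under 0.05 and with voom), with a median log2 fold change of 0.64, beside 0.15 for all genes. Among the genes with large rises were Acp5 (1.19), the tartrate-resistant acid phosphatase, and Lgmn (1.12), the asparaginyl protease that processes cathepsin precursors. Lgmn went from 42.2 ± 2.09 to 93.1 ± 10.05 FPKM (SD, 4 libraries per group, adjusted p = 1.03e-05). The smallest changes called were in Gla (0.52), alpha-galactosidase, and Acp2 (0.57), an acid phosphatase. Of the enzymes that cathepsin A protects, Glb1 was called (0.60, adjusted p = 0.00260, limma) and Neu1 was not (0.19, adjusted p = 0.0964, limma); both were chosen after their values were seen. The number called higher was 15 with median-of-ratios scaling and 13 after quantile normalization, beside 8.62% and 7.30% of all genes, each with 2 genes lower at an unadjusted p under 0.05 and 0 called lower.

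Genes of the lysosomal membrane, of sorting and of the proton pump were read in the same way. Of 22 genes for lysosomal membrane proteins, activators and sorting, 5 were called higher, beside 14.0% of all genes, and 0 lower, with 1 lower at an unadjusted p under 0.05 with limma and 0 called lower with voom, and the median log2 fold change was 0.37. That gene, Laptm4b, was called lower with median-of-ratios scaling (-0.55) and quantile normalization (-0.50), with 4 and 3 genes of the list called higher, beside 8.62% and 7.30% of all genes (chosen after its values were seen). Grn (1.07), for progranulin, Cd63 (1.05), a membrane tetraspanin, and Npc2 (0.96), a carrier of cholesterol, led, and Gm2a (0.77) and Lamp2 (0.50) were the others called. Of 17 subunits of the V-ATPase, which acidifies the lysosome, 3 were called higher and 0 lower (0 also at an unadjusted p under 0.05 and with voom), with a median of 0.32. The count of V-ATPase calls is near the 14.0% of all genes called higher. On the values as deposited, 13 of the 17 had no overlap between the groups, with ANG II higher, beside 28.7% of all genes, and 15 were higher at an unadjusted p under 0.05. The 3 called were Atp6ap2 (0.71), Atp6v1a (0.63) and Atp6v1h (0.58). The 3 calls were lost under median-of-ratios scaling and quantile normalization, where limma called 0. At an unadjusted p under 0.05, limma then counted 6 and 10 higher and 2 and 1 lower. With voom, 5 were called higher.

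**Figure D4:**
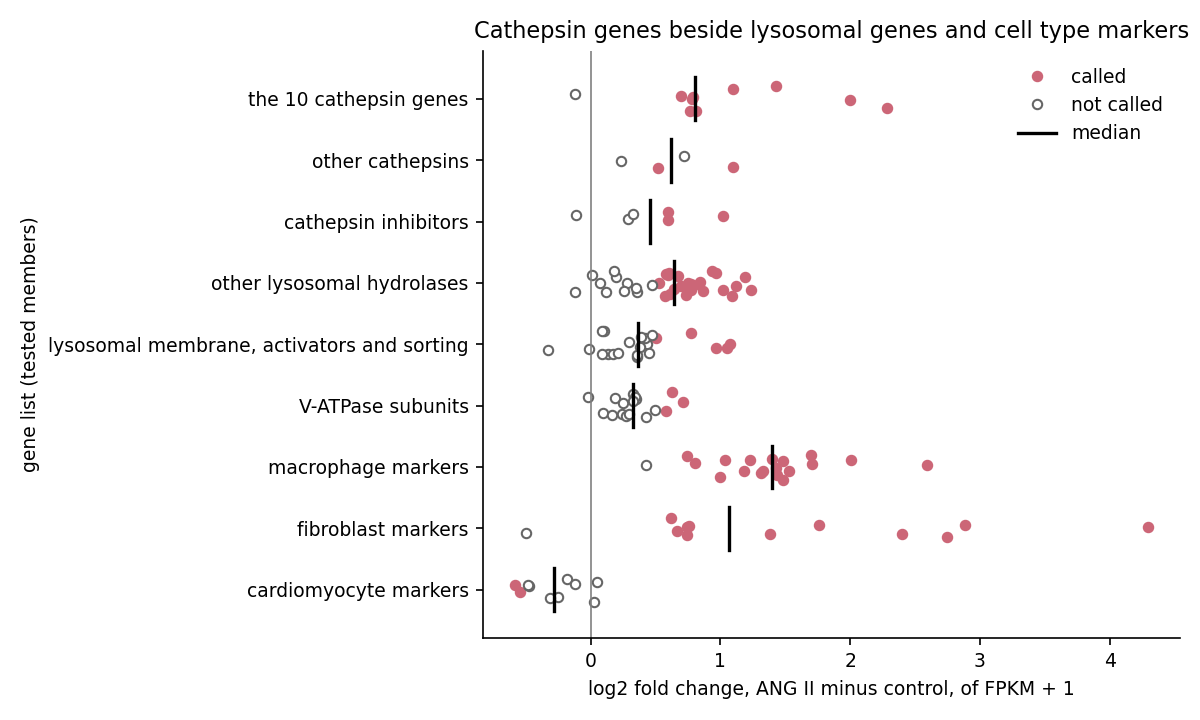
Log2 fold change of FPKM + 1, ANG II minus control, of each tested gene (points, filled where called) in the 10 cathepsin genes, 5 lists of related lysosomal genes and 3 lists of cell type markers, with black bars for medians. The cathepsin median of 0.80 lies above those of hydrolases (0.64), membrane and sorting genes (0.37) and V-ATPase subunits (0.32). It lies below those of macrophage (1.39) and fibroblast markers (1.07).

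Transcription factors of lysosomal and myeloid genes were read beside the cathepsins. Of 5, 3 were called higher, beside 14.0% of all genes, and 0 lower, with 1 lower at an unadjusted p under 0.05 with limma and 0 called lower with voom. Spi1, which encodes PU.1, read 7.63, 4.96, 5.65 and 5.46 FPKM in control and 20.7, 17.8, 19.1 and 17.2 FPKM in ANG II, without overlap. Its log2 fold change was 1.52 (SE 0.116, adjusted p = 1.92e-05). Tfe3 (0.57, adjusted p = 0.00253, limma) and Tfec (0.72, adjusted p = 0.00348, limma) were called. Tfeb, a regulator of lysosomal genes, stood at 24.3 ± 1.98 and 24.9 ± 1.43 FPKM (SD, 4 libraries per group; log2 fold change 0.04) and Mitf at 26.2 ± 1.34 and 23.4 ± 1.53 FPKM (SD, 4 libraries per group; -0.16), and neither was called. Under each of the other 3 scalings, 2 of the 5 were called.

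The letters CACGTG, the E-box core that TFEB and its relatives bind, occurred in 4 of the 9 RefSeq windows of the cathepsin genes, each the 250 bases before a start, against 6.02% of 32851 windows. They belonged to Ctsa, Ctsd, Ctsf and Ctsl, and the Ctsd window held 2 matches. Ctsa had 2 windows. The Ctsa window with the match and the Ctsl window lie within their genes as annotated by GENCODE, as does the Ctsd match nearer to the start, while the other Ctsd match and that of Ctsf lie before the annotated gene. Unlike those of Ctsk, Ctss, Ctsz and Ctsc, these windows overlap annotated exons, by 164 bases for Ctsa, 211 for Ctsd, 35 for Ctsf and 48 for Ctsl. The longer form TCACGTGA, which contains the core, was found for Ctsa and Ctsd, against 0.785% of windows. Ctsk, Ctss, Ctsz and Ctsc, with the largest fold changes, held neither, and Ctsf, which was not called, held the core. Each match is shown with up to 10 bases on either side, with the core in capitals (GRCm38.p6, 5′ to 3′ on the strand of the gene). The matches are descriptions of sequence, and binding was not measured.
Ctsa (chr2:164833751-164833772, plus strand): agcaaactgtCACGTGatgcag
Ctsd (chr7:142388057-142388077, minus strand): tccccCACGTGacctgtatcc
Ctsd (chr7:142387910-142387935, minus strand): gcccgcgtctCACGTGacccgttgag
Ctsf (chr19:4855076-4855101, plus strand): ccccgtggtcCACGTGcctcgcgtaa
Ctsl (chr13:64370741-64370766, minus strand): cgttagaagcCACGTGctgatctaaa

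Of 4 known substrates, the matrix genes rose. Col1a1 went from 64.7 ± 17.2 to 608 ± 52.2 FPKM (SD, 4 libraries per group, log2 fold change 3.25, adjusted p = 3.10e-06), Col1a2 rose by 3.13 and Eln, for elastin, by 1.97. Cd74, the invariant chain cut by cathepsin S, was 200, 91.8, 165 and 90.0 FPKM in control and 219, 121, 239 and 235 FPKM in ANG II. The groups overlapped through ANG II replicate 2, and Cd74 was not called (log2 fold change 0.61, SE 0.296, adjusted p = 0.147). Without that library it was called (0.84, SE 0.266, adjusted p = 0.0422, limma).

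The genes whose course over the 8 libraries was nearest to that of Ctsk and Ctss were found among 12937 genes that averaged 1 FPKM or more, by the root mean square difference of log2(FPKM + 1) less the control mean. For Ctsk they were Emp1 (0.112), Star (0.122), Itgbl1 (0.127) and Enpp1 (0.135). Star, a carrier of cholesterol into mitochondria, for example rose from 1.38 ± 0.0475 to 11.0 ± 3.09 FPKM (SD, 4 libraries per group). For Ctss they were Cd52 (0.157), C4b (0.232), Slc16a3 (0.252) and Lilr4b (0.253). Cd52, a surface glycoprotein of leukocytes, rose from 6.72 ± 2.38 to 27.1 ± 4.79 FPKM (SD, 4 libraries per group). The nearest genes of Ctss were farther from it than those of Ctsk, and the measure describes these libraries only.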

How the data were processed

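Left ventricles of 4 control and 4 ANG II libraries, grouped by treatment labels, were sequenced after enrichment of mRNA on oligo(dT) beads. FPKM values were deposited by the authors in 1 table with a column for each library. Bowtie2, HISAT and RSEM are named in the submitters' processing notes without version or role, and the genome build, annotation and use of strand were not given in the sources used here. The study states 16 samples in each group, and the 8 libraries of this table were analysed here. Of 55679 genes, 27083 were at 0 in all libraries.

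The members and the gene lists were chosen with earlier results of these data known. The deposited FPKM values were tested with limma 3.58.1 in R 4.3.3 (lmFit, then trended eBayes) on log2(FPKM + 1) over genes that averaged 0.1 FPKM or more, two-sided, with Benjamini-Hochberg adjustment over 19364 genes and no replicate block. A gene was called at an adjusted p under 0.05 and an absolute log2 fold change above 0.5. Both thresholds are the study's, which gives no log base; base 2 was used. The scale understates the change of low genes. The test was checked on simulated data. Pairs of genes and single values were compared by exact two-sided permutation over 70 allocations. Named genes were all members, every tested gene of the short lists, the 3 highest and 2 lowest calls of the longer lists, and the 4 genes nearest to Ctsk and to Ctss. A result that this rule picks is not reported here singly, and no other takes its place.

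Fragment counts were recovered from the FPKM steps and mean GENCODE M21 (GRCm38) transcript lengths, with at least 97.6% of low values within 0.05 of a whole number, and were used for depth and for voom. Intervals were not given for the fragment counts, since the sources used here name no molecular identifiers. Replicate numbers did not pair the libraries (correlations of deviations -0.04 to 0.09). Promoter windows were taken from RefSeq (GRCm38.p6). Alternatives changed the pseudocount, filter, scaling, variance trend, block, unit and fold threshold and left out each library; the transcript length behind the levels was an alternative added after the data were seen. Python 3.11.15, pandas 2.3.3 and scipy 1.17.1 were used.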

Additional observations from a re-analysis of the deposited data

Results flagged for a closer look

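In 5 of the 102 groups of 4 libraries examined, 1 library stood apart from the other 3 by Dixon's criterion, and chance alone flags about 1 in 20 groups. None of the 5 was a group of the 10 cathepsin genes. Ctse was at 0 FPKM in control replicate 1 and at 0.0652 to 0.0740 FPKM in the other controls. Cst7 was at 0.351 FPKM in control replicate 1 and at 0 in the others. The summed erythroid markers reached 487 FPKM in control replicate 1, against 96.8 to 162 FPKM in the other controls. Cstb was at 31.3 FPKM in ANG II replicate 3 and at 22.7 to 23.8 FPKM in the other ANG II libraries. Cd74 was at 121 FPKM in ANG II replicate 2, below the 219 to 239 FPKM of the others.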

How the results depend on the processing

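The count of 9 cathepsin genes called was 8 to 9 under all alternatives except a fold threshold of 1, which left 4 (Ctsk, Ctss, Ctsz and Ctsc), and it stayed at 9 without each library in turn and with the replicate block, which made no paired design since the numbers did not pair. The block added calls of Ctsw (adjusted p = 0.0345, limma) and Cd74 (0.0479), and Cd74 was also called without ANG II replicate 2. The 28 unequal pairs stayed 28 with a pseudocount of 0.1. Among other cathepsins, 1 gene was called with a filter at 1 FPKM (fewer genes tested), median-of-ratios scaling, quantile normalization, scaling without mitochondrial and top genes, and a fold threshold of 1, 3 with voom (Ctse added), and 1 (without control replicate 4) to 3 (without ANG II replicate 2, Ctsw added) when 1 library was left out. Inhibitor calls fell from 3 to 1 with median-of-ratios scaling, scaling without mitochondrial and top genes, and a fold threshold of 1. They were 2 with quantile normalization and with no filter, 4 with voom, and 2 to 3 with libraries left out. Hydrolase calls were 15, 13 and 5 with median-of-ratios scaling, quantile normalization and a fold threshold of 1, and 23 to 25 with libraries left out. Membrane and sorting calls were 2 and transcription factor calls 1 at a fold threshold of 1. V-ATPase calls were 5 with a pseudocount of 0.1 and with voom, 1 with scaling without mitochondrial and top genes, and 0 with median-of-ratios scaling, quantile normalization and a fold threshold of 1. The cause of these changes was not tested. Low fragment numbers limit the values of genes such as Ctse and Cst7.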
